A study of Mus musculus with 6 samples.

Results

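The serpins are a family of proteins that share one fold, most of which inhibit proteases. They were followed here in NMuMG, an immortalised mouse mammary epithelial cell line that was derived from healthy tissue. Members were all genes whose annotated symbol begins with Serpin, a letter from a to i and a number. They came to 40 of the 18193 genes measured, through 56 probe sets, and of several probe sets of a gene the one brightest on average was read. The rule used names and overall level, not the groups, but it was chosen with earlier results of these data known.

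An inhibitory serpin offers a loop as bait, and the protease that cuts it is dragged across the serpin and held in a dead complex. Clade A serpins such as α1-antitrypsin are mainly made by the liver and secreted, while clade B serpins mostly stay inside the cell and guard it against its own or foreign proteases. A few members have lost inhibition and act as carriers, as a collagen chaperone or as tumour suppressor proteins. In TGF-β biology the collagen chaperone is among the best known members.

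The study hybridised RNA of 3 groups to Affymetrix mouse arrays, 2 arrays per group. All cells were NMuMG grown with serum and insulin. Control cells received vehicle, TGF-β cells received 4 ng/ml of the cytokine for 11 days, and withdrawal cells received the same and were then kept for 13 days without it. Withdrawal cells were therefore also in culture longer than TGF-β cells, and the 2 effects cannot be told apart; the days of the control are not stated. Separate cultures are not stated for arrays of the same group, so the p-values rest on a spread that may be technical. One descriptive field of the labels names the transition states of the treated groups the other way round, and the groups here follow the sample titles and treatment entries.

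Array medians lay between 5.77 and 5.79, and arrays correlated at a Pearson's r of 0.998 within groups and 0.974 to 0.981 between groups, across probe sets. Of 8 epithelial markers, 0 were higher and 5 lower under TGF-β, with a list mean of 10.12 on both control arrays, 8.60 and 8.66 under TGF-β and 9.75 and 9.76 on withdrawal (log2). Of these, Cldn7, with means of 4.93 to 5.06, Cldn3 and Epcam were not called under TGF-β. On withdrawal against TGF-β, 3 of the 8 were higher and 2 lower, Epcam by 0.27 and Krt8 by 0.22. Against control, 0 were higher on withdrawal and 3 lower, which were Krt8, Krt18 and Krt19. Of 7 endothelial markers 1 was lower under TGF-β, of 4 adipocyte markers 0 changed, and of 4 platelet markers 1, Ppbp, was lower in each comparison. Values are log2 expression without detection calls, so a low value may be background. In bulk RNA, fewer cells of a type and less RNA per cell cannot be told apart.

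The family as a whole changed about as often as other genes, but a few members moved far. By limma at an adjusted p of 0.05, 9 of 40 members were higher and 5 lower on the TGF-β arrays than on the control arrays, together 35.0% against 32.4% of all genes. On withdrawal against TGF-β, 10 were higher and 6 lower, together 16 of 40 against 43.9% of all genes. On withdrawal against control, 11 were higher and 3 lower, together 35.0% against 45.3%. The median difference over the members was 0.055, 0.012 and 0.035 in the 3 comparisons, against -0.011, -0.033 and -0.042 over all genes. Calls with a difference of at least 1 numbered 7, 4 and 7 of 40, against 5.30%, 7.93% and 8.54% of all genes. Those calls came from 8 members, Serpina1b, Serpina1c, Serpinb1a, Serpinb1b, Serpinb9, Serpinb9b, Serpinh1 and Serpinb5. The arrays of the 2 groups compared did not overlap for 23, 21 and 26 of 40 members, against 64.9%, 69.0% and 70.5% of all genes. A further 11 members were called with smaller differences only, and 21 in no comparison.

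The split between higher and lower depends on how arrays are scaled. Scaled to the poly-A spikes, RNAs added before labelling, 4 members were higher and 9 lower under TGF-β, and 5 and 9 with the hybridization spikes. On withdrawal against TGF-β the members split into 10 and 2 with poly-A spikes and 7 and 11 with hybridization spikes, and against control into 10 and 2 and into 7 and 25. For the whole array the main split was 2726 genes up and 3175 down under TGF-β, 3960 and 4023 on withdrawal against TGF-β, and 3943 and 4292 on withdrawal against control. With poly-A spikes these became 903 and 5089, 3672 and 1624, and 2136 and 3712. With hybridization spikes they became 1319 and 4408, 2146 and 7772, and 1655 and 12634. The median of all genes moved to -0.27, 0.11 and -0.16 with poly-A spikes and to -0.17, -0.25 and -0.42 with hybridization spikes. The spikes also differed between arrays of the same group. Poly-A spike means were 8.10 and 7.83 in control, 8.29 and 8.15 under TGF-β, and 8.04 and 8.12 on withdrawal. Hybridization spike means were 10.93 and 10.83 in control, 11.04 and 11.04 under TGF-β, and 11.35 and 11.17 on withdrawal. Both scalings were applied to the deposited values and carry this spread into them, as 1 offset shared by all genes of an array. Counts and adjusted p with spikes are therefore not directly comparable with those of the main fit. Differences below are relative to the common level of the arrays. The number of members lower under TGF-β fell to 3 without either control array or without the second TGF-β array.

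**Figure D1:**
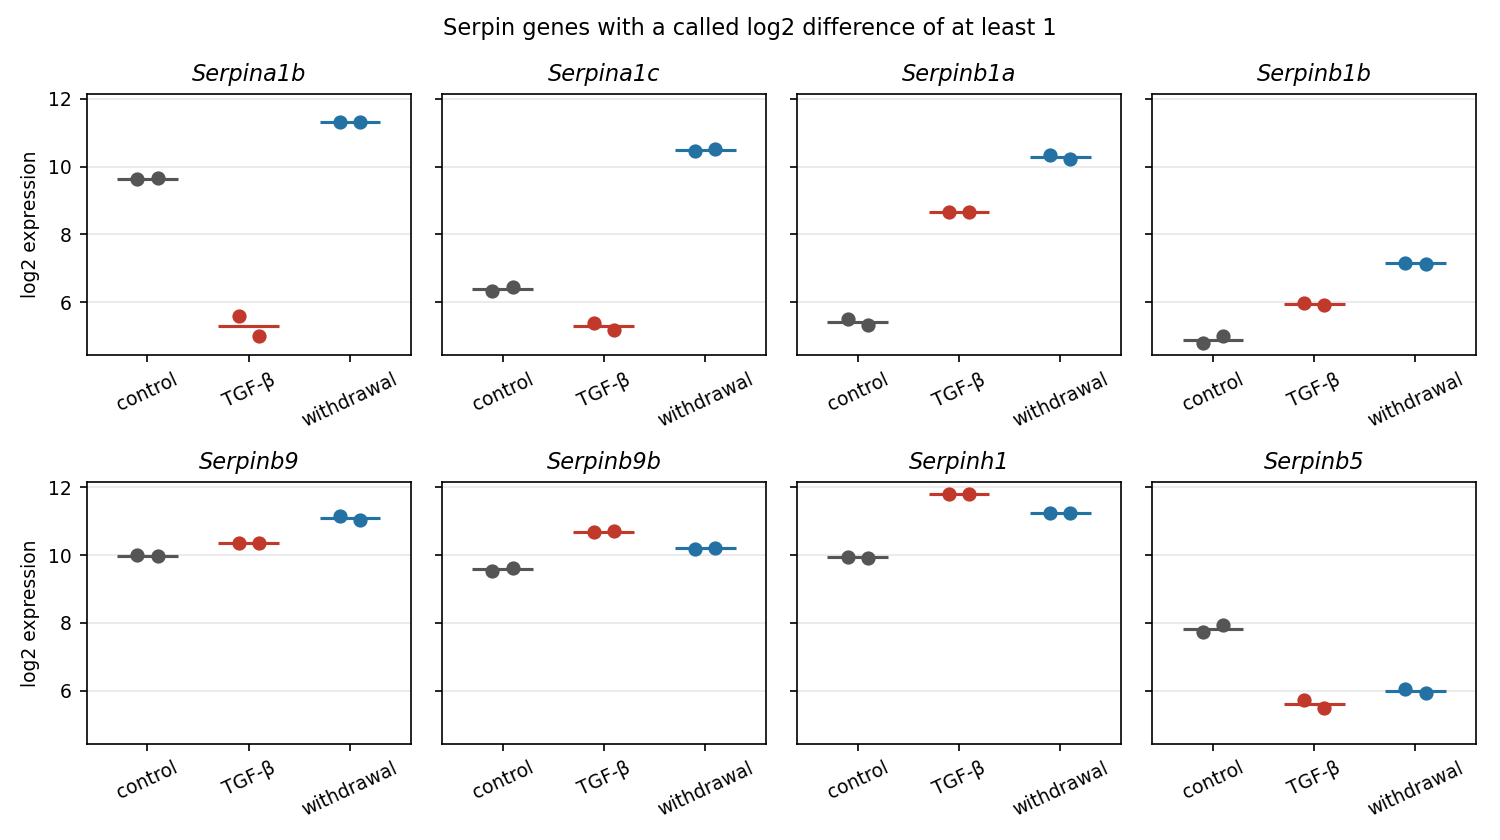
Log2 expression (y axis) of the 8 Serpin genes with a called difference of at least 1, in the 3 groups (x axis); each point is an array and each line the mean of the 2 arrays of a group. Both Serpina1 genes are lowest under TGF-β and highest on withdrawal, Serpinb1a, Serpinb1b and Serpinb9 step up in both treated groups, Serpinb9b and Serpinh1 peak under TGF-β, and Serpinb5 is low in both.

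**Figure D2:**
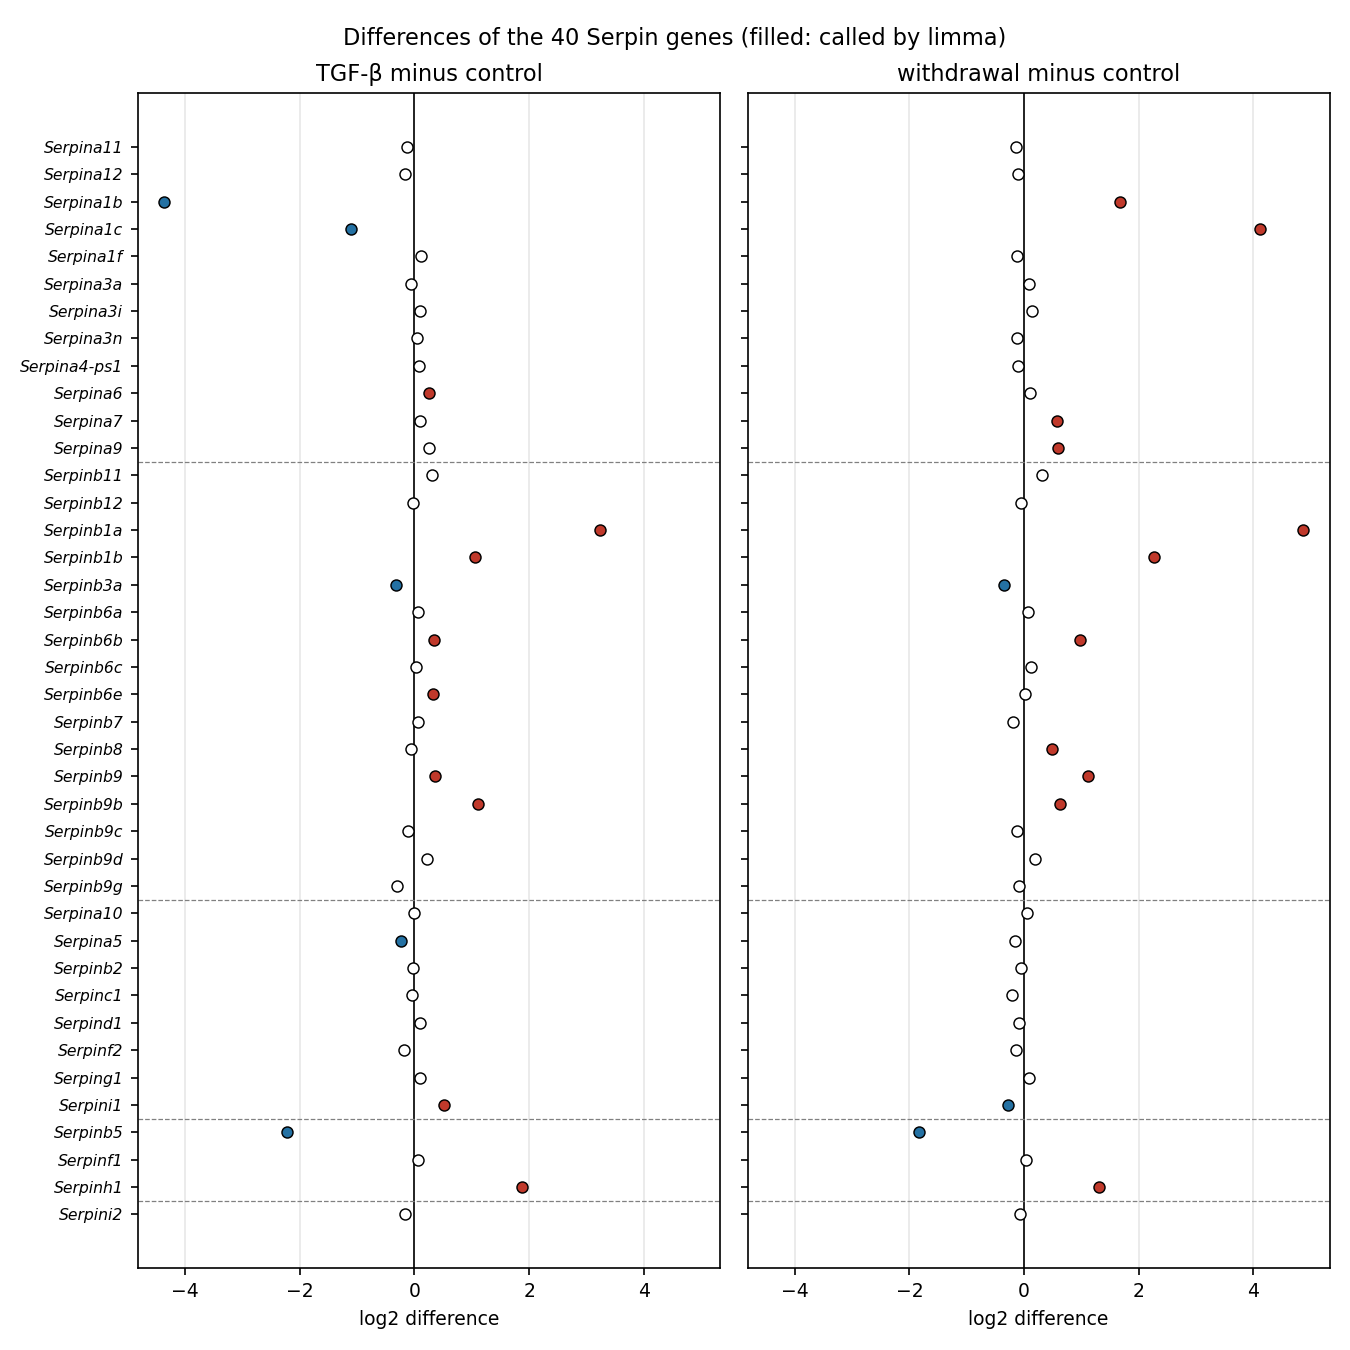
Log2 differences (x axis) of all 40 Serpin genes (y axis) from control, under TGF-β on the left and on withdrawal on the right; both panels share the control arrays. Filled points passed limma (red higher, blue lower), open points did not, and dashed lines part, from the top, secreted clade A, intracellular clade B, the plasminogen activator and thrombin inhibitors, the matrix group and Serpini2. Most points lie near 0, and the largest is Serpinb1a at 4.87 on withdrawal; the split of small calls turns with spike scaling.

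The inhibitors of plasminogen activation, clotting and complement were mostly at low values without called changes. Of 8 measured members, 1 rose and 1 fell under TGF-β, and 1 fell in each withdrawal comparison, against 32.4%, 43.9% and 45.3% of all genes called in either direction. The one with several calls was Serpini1, which encodes neuroserpin, an inhibitor of tissue plasminogen activator. It read 5.25 and 5.30 in control, 5.84 and 5.73 under TGF-β, and 5.003 and 4.990 on withdrawal, so that no groups overlapped. It rose by 0.51 ± 0.060 (SE) under TGF-β, fell by 0.79 ± 0.060 on withdrawal and ended 0.28 below control (limma adjusted p = 0.00136, 0.000141 and 0.0111). The rise was lost with poly-A spikes (adjusted p = 0.209). The last call was lost without the second control array (0.0668), with poly-A spikes (0.0512) and with the mean of its probe sets (0.173). Of its other probe sets, one gave 0.25, -0.32 and -0.07 and the other 0.03, 0.02 and 0.05.

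Serpinb2, encoding a clade B inhibitor of urokinase, read 3.51 to 3.76 on all arrays and was not called (adjusted p = 0.839, 0.882 and 0.685). Serpina5, the protein C inhibitor gene, was 0.23 lower under TGF-β (adjusted p = 0.0471), and left without any one of the 6 arrays it did not pass (0.0593 to 0.212), nor with the replicate number as a block (0.0587). The genes of antithrombin, Serpinc1, heparin cofactor II, Serpind1, the protein Z-dependent inhibitor, Serpina10, α2-antiplasmin, Serpinf2, and the C1 inhibitor of complement, Serping1, were called in no comparison. Serpinc1 did pass in both withdrawal comparisons without the second withdrawal array (adjusted p = 0.0115 and 0.00828). Serpinf2 passed in both comparisons with control once the dimmest 40% of genes were left out (adjusted p = 0.0227 and 0.0399), at -0.18 and -0.14.

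Other genes of plasminogen activation and clotting changed in both directions around them. Of 31 measured, 6 rose and 7 fell under TGF-β, 8 rose and 8 fell on withdrawal against TGF-β, and 7 were higher and 10 lower against control, with medians of -0.022, -0.11 and -0.088. Of all genes, 15.0% were higher and 17.5% lower in the first of these comparisons, 21.8% and 22.1% in the second and 21.7% and 23.6% in the third. With poly-A spikes the list split into 5 and 8, 9 and 4, and 7 and 8, and with hybridization spikes into 5 and 8, 7 and 16, and 6 and 23. Plau, the urokinase gene, rose by 2.27 ± 0.12 (SE) and then fell by 1.75. Lrp1, the receptor that clears serpin complexes from the cell surface, rose by 1.85 under TGF-β and by 1.12 more on withdrawal, to 2.96 above control, with means of 7.76, 9.60 and 10.72. F2r, the thrombin receptor gene, fell by 1.28 and Procr, the protein C receptor gene, rose by 1.68 under TGF-β. F3, the tissue factor gene, was 2.31 below control on withdrawal, with Thbd, the thrombomodulin gene, 2.19 and Pros1, the protein S gene, 1.62 above it. F5, the clotting factor V gene, rose by 1.47 on withdrawal against TGF-β. In limma these values had adjusted p from 2.76e-06 to 9.29e-05.

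The group of members that act in matrix or as tumour suppressors held both a lasting rise and a lasting fall. Serpinh1, which encodes HSP47, the chaperone that binds procollagen in the endoplasmic reticulum, read 9.96 and 9.92 in control, 11.81 and 11.80 under TGF-β, and 11.24 and 11.25 on withdrawal. No groups overlapped. It rose by 1.87 ± 0.049 (SE) under TGF-β, or 3.66-fold, fell by 0.56 ± 0.049 on withdrawal and stayed 1.31 ± 0.049 above control, 69.8% of the first difference. The limma adjusted p was 4.90e-06, 0.000229 and 1.08e-05. A second probe set gave 1.92, -0.53 and 1.39.

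Serpinb5 encodes maspin, a serpin of mammary epithelium that does not inhibit proteases and is known as a tumour suppressor. It read 7.74 and 7.92 in control, 5.72 and 5.49 under TGF-β, and 6.06 and 5.93 on withdrawal. Both treated groups lay well below control. It fell by 2.22 ± 0.11 (SE) under TGF-β, or 4.67-fold, and was still 1.84 ± 0.11 below control on withdrawal, 82.6% of the first difference (limma adjusted p = 3.87e-05 and 4.51e-05). The rise of 0.39 between the treated groups passed (adjusted p = 0.0287) but was lost without either withdrawal array or the second TGF-β array (0.0567 to 0.131), and with hybridization spikes (0.265). All 4 probe sets of the gene were lower in both treated groups than in control, with differences of -3.16 to -2.04 under TGF-β and -2.64 to -1.71 on withdrawal.

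The 250 bases upstream of the starts of these 2 members are printed because they moved in opposite directions, from RefSeq (GRCm38.p6, 5′ to 3′) at chr1:106860925-106861174 on the plus strand and chr7:99353240-99353489 on the minus strand. Capitals mark the letters CAGACA of the Smad-bound CAGA box, CAGGTG of the E-box bound by Snail and Zeb factors, and TGANTCA of AP-1, each searched on both strands.
Serpinb5: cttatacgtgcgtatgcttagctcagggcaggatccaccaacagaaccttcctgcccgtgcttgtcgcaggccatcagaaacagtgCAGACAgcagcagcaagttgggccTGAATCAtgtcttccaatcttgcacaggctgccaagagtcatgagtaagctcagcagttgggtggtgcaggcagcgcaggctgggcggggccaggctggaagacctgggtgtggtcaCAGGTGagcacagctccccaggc
Serpinh1: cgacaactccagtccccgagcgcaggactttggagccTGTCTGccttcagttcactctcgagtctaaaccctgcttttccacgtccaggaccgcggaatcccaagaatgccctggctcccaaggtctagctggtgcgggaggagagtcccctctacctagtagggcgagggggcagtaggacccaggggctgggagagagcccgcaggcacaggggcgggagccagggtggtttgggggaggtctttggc
In Serpinb5 the CAGA box letters lie 164, the AP-1 letters 140 and the E-box letters 23 bases upstream, with no overlap between them. In Serpinh1 the CAGA box letters lie 213 bases upstream on the other strand. Such letters are found in many promoters. In promoter windows of that length, CAGACA occurs in 17.1% of all gene starts. Among the 40 starts of the 34 members with a promoter it occurs in 8. For the AP-1 letters the figures are 6.75% and 9 of 40 starts, and for the E-box letters 17.2% and 10 of 40. These counts were not tested against the shares.

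Serpinf1, which encodes the secreted anti-angiogenic factor PEDF, depended on the probe set. The one used read 6.70 to 6.92 on all arrays and was not called (adjusted p = 0.583, 0.698 and 0.828). The other read 4.55 and 4.44 in control, 5.24 and 5.49 under TGF-β, and 4.55 and 4.34 on withdrawal. Leaving out probe sets ending in x, s or a kept only that one. Through it the gene passed at 0.87 under TGF-β and -0.92 on withdrawal (limma adjusted p = 0.00183 and 0.000885). With the mean of both, it passed at 0.47 and -0.48 (0.00443 and 0.00265).

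Collagen genes and the enzymes that fold and modify collagen with Serpinh1 rose with it under TGF-β. Of 30 measured, 23 rose and 3 fell, with a median of 1.14, against 15.0% and 17.5% and a median of -0.011 over all genes. On withdrawal against TGF-β, 6 rose and 19 fell, with a median of -0.51. Against control, 23 were higher and 3 lower on withdrawal, with a median of 0.72. The genes higher on withdrawal were not all the same as those that rose under TGF-β. With poly-A spikes the counts were 19 and 4, 6 and 14, and 17 and 1, and with hybridization spikes 20 and 3, 4 and 20, and 16 and 6. Collagen genes of this list were part of earlier results on these arrays and are no independent evidence.

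The gene of the type I collagen α1 chain, Col1a1, rose by 3.83 ± 0.12 (SE) and then fell by 3.41, whereas Serpinh1 kept most of its rise. Creb3l1, a transcription factor of collagen secretion, rose by 2.77, Col5a1 by 2.46 and Pcolce2, a procollagen protease enhancer gene, by 2.32. On withdrawal Pcolce2 fell by 2.41. Some genes of the list were highest on withdrawal. Pcolce was 2.91 above control there, Plod1, a collagen lysyl hydroxylase gene, 1.47, P3h2, a prolyl hydroxylase gene, 1.74 and Col6a1 1.54. P3h2 and Col6a1 rose by 1.84 each against TGF-β. For these values the limma adjusted p ranged from 2.22e-06 to 6.00e-05. Of 6 fibroblast markers, 2 of them collagens, 2 were higher under TGF-β and 2 on withdrawal against control, while Pdgfra, Dcn, Lum and Thy1 were not called, at means of 3.81 to 6.41.

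**Figure D3:**
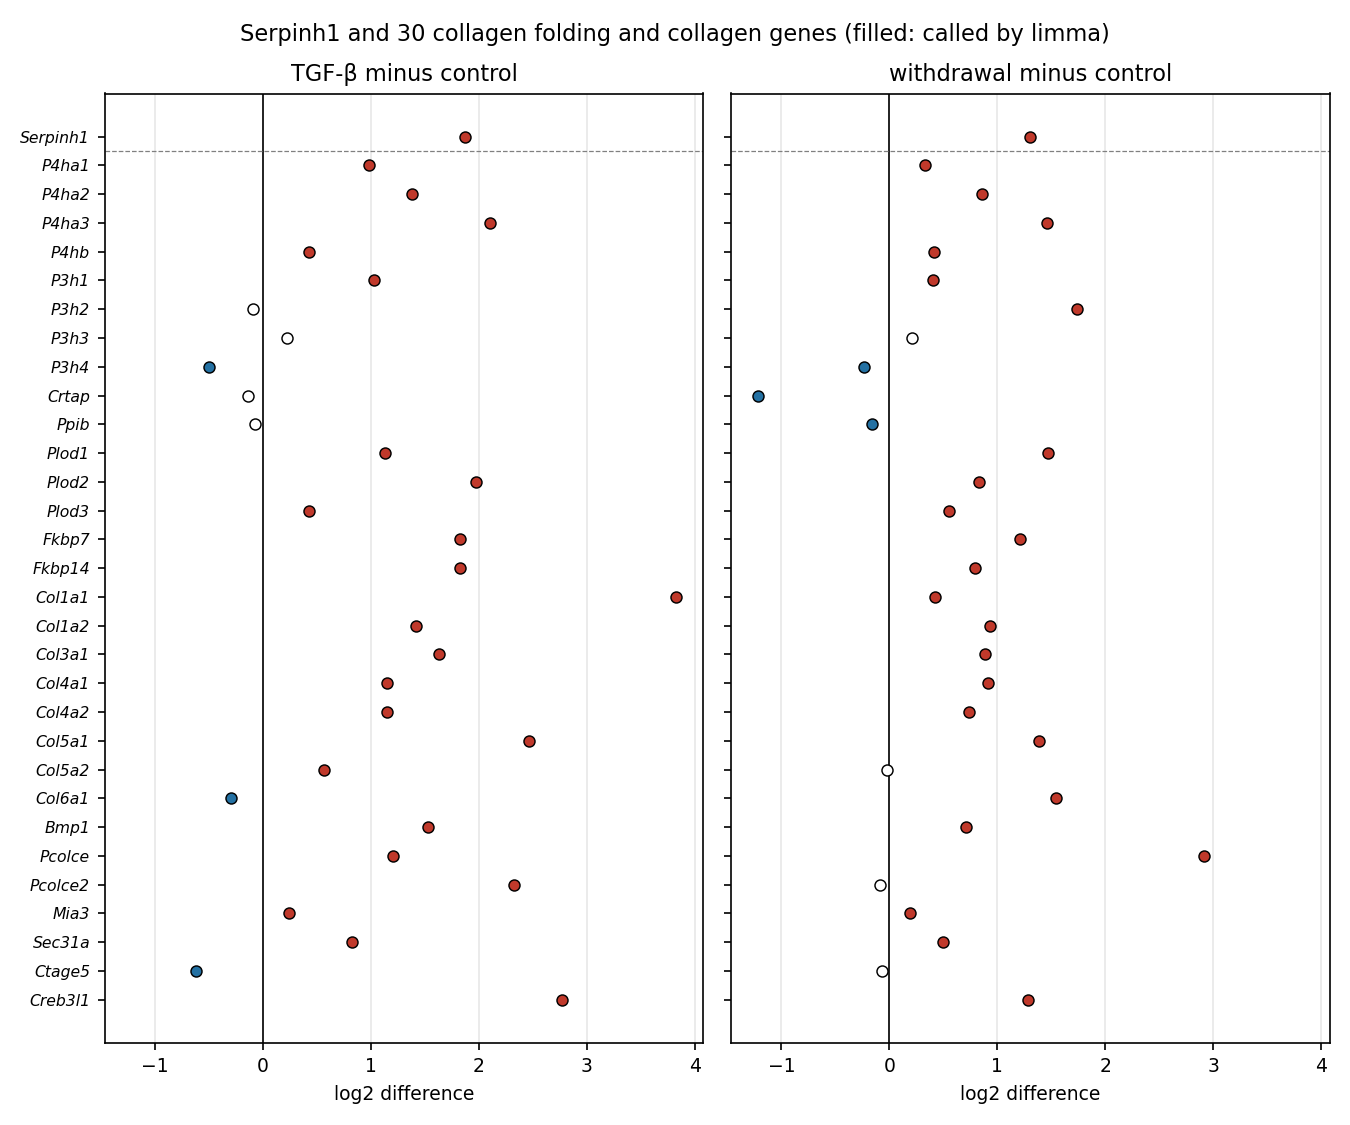
Log2 differences (x axis) from control of Serpinh1 and the 30 collagen and collagen-folding genes (y axis), under TGF-β on the left and on withdrawal on the right, with shared control arrays; filled points passed limma (red higher, blue lower) and open points did not. Serpinh1 lies at 1.87 and 1.31 and Col1a1 at 3.83 and 0.42.

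Clade A, the secreted serpins, held the widest swing. Serpina1b and Serpina1c, which encode forms of α1-antitrypsin, the plasma inhibitor of neutrophil elastase, fell under TGF-β and rose above control after it was removed. The Serpina1 genes are near-identical copies that lie together in the genome, so probes of one can also read another, and the gene behind each signal is uncertain. To show how alike 5 copies are before their starts, a window of 100 bases upstream of each is printed from RefSeq (build GRCm38.p6, minus strand, 5′ to 3′). The windows were aligned on GTTAAT, the half-site of the liver factor HNF1, in capitals, and end 1 to 63 bases before the start. These upstream bases are not the transcripts that probes read. They lie at chr12:103863625-103863724, chr12:103738200-103738299, chr12:103904962-103905061, chr12:103773634-103773733 and chr12:103956960-103957059, in the order given.
Serpina1a: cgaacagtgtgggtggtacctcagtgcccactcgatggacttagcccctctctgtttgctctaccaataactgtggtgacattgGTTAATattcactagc
Serpina1b: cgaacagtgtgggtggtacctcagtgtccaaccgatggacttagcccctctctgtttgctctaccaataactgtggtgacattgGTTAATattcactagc
Serpina1c: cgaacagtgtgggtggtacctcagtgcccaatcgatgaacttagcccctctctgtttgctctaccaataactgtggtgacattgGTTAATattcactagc
Serpina1d: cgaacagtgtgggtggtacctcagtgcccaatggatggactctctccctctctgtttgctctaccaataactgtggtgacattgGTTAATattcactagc
Serpina1e: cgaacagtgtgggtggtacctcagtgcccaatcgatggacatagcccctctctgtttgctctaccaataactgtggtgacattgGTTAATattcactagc
Over these windows, the 10 pairs of copies were identical at 93 to 98 of 100 bases. GTTAAT, searched on both strands, occurs in the 250 bases upstream of 6.43% of all 32851 RefSeq gene starts. Of the 40 starts of the 34 members with a promoter, 6 hold it, in 5 members, Serpina1b, Serpina1c, Serpina7, Serpinb8 and Serpini2. A match is a description of letters and not a binding site.

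Serpina1b read 9.63 and 9.66 on the control arrays, 5.58 and 4.99 under TGF-β, and 11.32 and 11.31 on withdrawal. The 3 groups did not overlap, and the TGF-β arrays were the lowest. It fell by 4.36 ± 0.18 (SE, log2) under TGF-β, a 20.5-fold drop, and rose by 6.03 ± 0.18 on withdrawal, to 1.67 ± 0.18 above control. Adjusted p by limma came to 2.15e-05, 6.80e-06 and 0.00053. Its probe sets, including a second one that fell by 3.98 and rose by 5.66, are of the kind whose probes can match other transcripts, so leaving such sets out left it without a value.

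Serpina1c read 6.34 and 6.43 in control, 5.38 and 5.19 under TGF-β, and 10.47 and 10.54 on withdrawal. Again the groups did not overlap. It fell by 1.10 ± 0.079 (SE), or 2.15-fold, under TGF-β and then rose by 5.22 ± 0.079, which left it 17.3-fold above control (4.12 ± 0.079). These had limma adjusted p of 0.000183, 1.20e-06 and 2.50e-06. Its probe set is not of the cross-matching kind by name. Another 2 probe sets, annotated to several Serpina1 genes each and used for none, had group means of 7.98, 3.95 and 10.68 and of 4.15, 3.51 and 5.65 in control, TGF-β and withdrawal. These 5 probe sets had the same order of the 3 groups, while that of Serpina1f was highest under TGF-β and lowest on withdrawal.

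The remaining 10 members of clade A listed with the secreted serpins moved little. Serpina7 and Serpina9, encoding thyroxine-binding globulin and a serpin of germinal centre B cells, were 0.58 and 0.59 above control on withdrawal (limma adjusted p = 0.0147 and 0.00238). Serpina7 lost that call without either control array or the first withdrawal array (adjusted p = 0.061, 0.0692 and 0.0711), and with hybridization spikes (0.148). Serpina9 lost its own with hybridization spikes (0.137). They also rose against TGF-β by 0.49 and 0.34 (adjusted p = 0.0296 and 0.0232), and each of those calls was lost on leaving out single arrays. For Serpina7 these were either control array, the first withdrawal array or the second TGF-β array (adjusted p = 0.0558 to 0.132), and for Serpina9 either withdrawal array or the second TGF-β array (0.0543 to 0.108). Serpina6, the corticosteroid carrier gene, was 0.25 higher under TGF-β (adjusted p = 0.0271), a call lost without either array of those groups (0.0622 to 0.14) and turned to -0.01 with poly-A spikes. Serpina1f fell by 0.24 on withdrawal against TGF-β (adjusted p = 0.0164), a call lost without either withdrawal array or the first TGF-β array (0.0576 to 0.0797). Serpina3n, Serpina3a and Serpina3i, relatives of α1-antichymotrypsin that can also share probes, were called in no comparison, and Serpina3n read 5.33 to 5.70 over all 6 arrays. Serpina11 and Serpina12, the latter encoding the adipokine vaspin, and the pseudogene Serpina4-ps1 were likewise not called.

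Genes of other proteins that the liver secretes, and of their transcription factors, changed in part. Of 36 measured genes of such a list, 3 rose and 13 fell under TGF-β, against 15.0% and 17.5% of all genes, with a median difference of -0.15. On withdrawal against TGF-β, 17 rose and 2 fell, against 21.8% and 22.1% of all genes, with a median of 0.21, which was -0.0041 with hybridization spikes. Against control, 11 were higher and 10 lower on withdrawal, against 21.7% and 23.6% of all genes, with a median of -0.12. With poly-A spikes the counts were 2 and 19, 18 and 0, and 9 and 9, and with hybridization spikes 2 and 17, 15 and 9, and 9 and 23. Rbp4, the retinol carrier gene, fell by 5.07 under TGF-β and rose by 4.51 after it. Hpx, the gene of the heme scavenger hemopexin, fell by 3.91 and rose by 3.76. Of the genes of liver transcription factors, Hnf4a fell by 2.93 and Foxa2 fell by 2.69 under TGF-β. Alb, the albumin gene, had means of 6.29, 5.93 and 9.54 in control, TGF-β and withdrawal. Against control, withdrawal arrays were higher for Alb by 3.25, Cp, the ceruloplasmin gene, by 2.26, Ttr, the transthyretin gene, by 1.94 and the transcription factor gene Cebpd by 1.45. Over these named values the limma adjusted p ranged from 8.69e-07 to 8.04e-05.

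Some markers of hepatocytes changed in these comparisons and others did not. Of 8 measured markers, 0 were higher and 2 lower under TGF-β, 4 higher and 0 lower on withdrawal against TGF-β, and 3 higher and 1 lower against control. Their mean was 5.93 and 5.92 on the control arrays, 5.65 and 5.68 under TGF-β, and 6.67 and 6.71 on withdrawal. Apoa1 rose by 1.63 on withdrawal, while Apoa2, Cps1 and Hpd were called in no comparison and stayed at or under 5.61 in every group mean, and Tat fell by 0.28 against control. Alb and Ttr stand in both lists. The part of liver-like cells in the Serpina1 values was not tested.

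**Figure D4:**
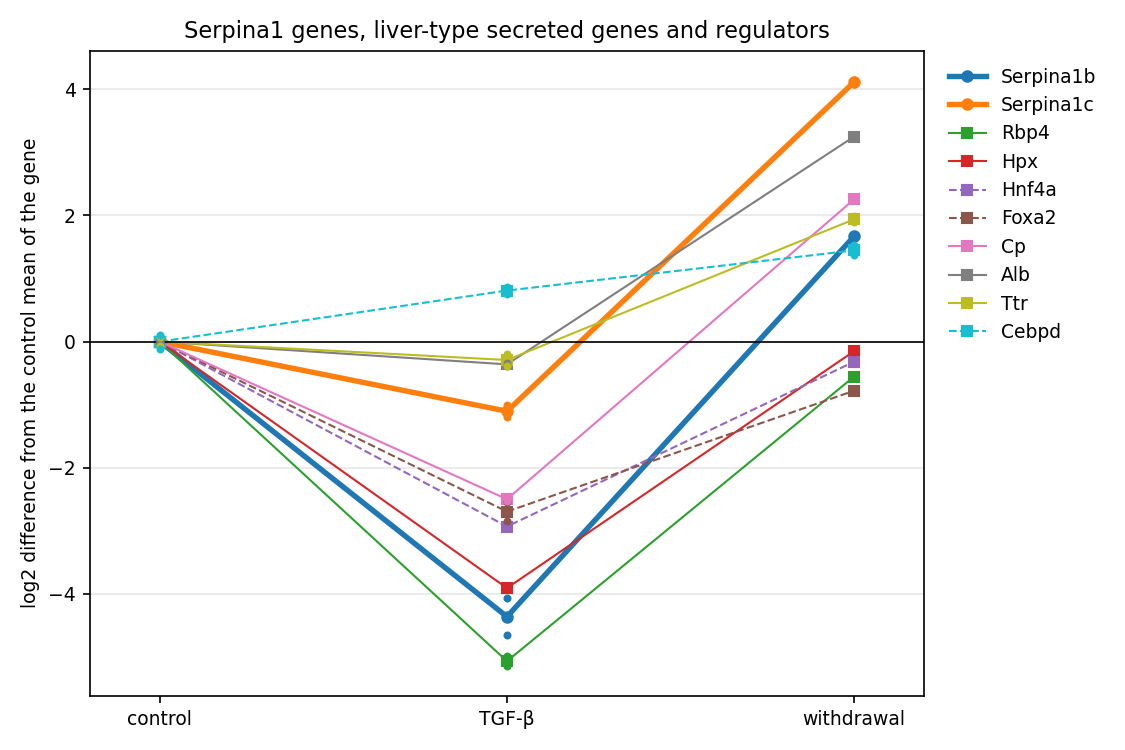
Log2 difference from the control mean of each gene (y axis) in the 3 groups (x axis) for Serpina1b and Serpina1c (thick lines) and the 8 liver-list genes named by rule, of which the transcription factor genes are dashed; small points are arrays and lines join group means. Serpina1b goes to -4.36 under TGF-β and 1.67 on withdrawal, and Serpina1c to -1.10 and 4.12.

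Clade B, the intracellular serpins, held the members that kept rising. Serpinb1a, which encodes the inhibitor of elastase and cathepsin G known from leukocytes, read 5.51 and 5.33 in control, 8.65 and 8.66 under TGF-β, and 10.34 and 10.24 on withdrawal. Each step was far larger than the gap between arrays of a group. It rose by 3.24 ± 0.076 (SE) under TGF-β and by 1.63 ± 0.076 more on withdrawal, to 29.2-fold above control (4.87 ± 0.076). By limma these gave an adjusted p of 3.61e-06, 2.33e-05 and 2.22e-06. A second, dimmer probe set gave 1.09, 1.88 and 2.96 for the same differences.

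Serpinb1b, a close mouse relative of Serpinb1a, read 4.78 and 4.99 in control, 5.98 and 5.90 under TGF-β, and 7.17 and 7.14 on withdrawal. The groups did not overlap and kept the same order. The differences were 1.06, 1.21 and 2.27 (each ± 0.081, SE), with limma adjusted p of 0.000237, 8.70e-05 and 9.68e-06.

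Serpinb9, which encodes the inhibitor that protects cells from granzyme B, read 9.99 and 9.99 in control, 10.35 and 10.36 under TGF-β, and 11.17 and 11.05 on withdrawal. It rose by 0.36 ± 0.058 (SE) and then by 0.76 ± 0.058, to 1.12 above control, or 2.18-fold (limma adjusted p = 0.00482, 0.000141 and 2.98e-05). The first of these calls was lost with poly-A and hybridization spikes (adjusted p = 0.611 and 0.244). Its second probe set gave 0.69, 0.68 and 1.37.

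Serpinb6b, of the placental-type inhibitors that act on several serine proteases, followed the same steps with differences of 0.34, 0.63 and 0.97 (limma adjusted p = 0.00544, 0.000258 and 4.39e-05). The first was lost with both spike scalings (adjusted p = 0.698 and 0.306). Its neighbour Serpinb6a, on one probe set, read 13.22 to 13.31 on all 6 arrays and was not called. It did pass against control with an intensity trend and with cyclic loess (adjusted p = 0.0129 and 0.0224), at differences of 0.07 and 0.18, and in the other direction with hybridization spikes, at -0.30 (0.0300). Serpinb6e rose by 0.33 under TGF-β and fell by 0.31 on withdrawal (adjusted p = 0.0131 and 0.0116). The rise was lost without either control array or the second TGF-β array (0.0546 to 0.0762) and with both spike scalings (0.731 and 0.332), and the fall without the second TGF-β array (0.0597) and with poly-A spikes (0.525).

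Serpinb9b, another relative of the granzyme B inhibitor, peaked under TGF-β instead. It read 9.54 and 9.63 in control, 10.67 and 10.70 under TGF-β, and 10.20 and 10.20 on withdrawal. No groups overlapped. It rose by 1.11 ± 0.055 (SE), fell by 0.49 ± 0.055 and remained 0.62 above control (limma adjusted p = 4.29e-05, 0.00069 and 0.000233). The fall was lost with poly-A spikes (adjusted p = 0.109) and the remaining difference with hybridization spikes (0.0859). Serpinb9c, Serpinb9d and Serpinb9g were called in no comparison.

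By RefSeq the 18 clade B members, counting Serpinb2 and Serpinb5 described above, lie on 2 chromosomes. One holds the 11 Serpinb1, Serpinb6 and Serpinb9 genes, of which 6 rose and 0 fell under TGF-β, 4 rose and 2 fell on withdrawal against TGF-β, and 5 were higher and 0 lower on withdrawal against control. Over all genes the higher and lower shares were 15.0% and 17.5%, 21.8% and 22.1%, and 21.7% and 23.6%. With poly-A spikes the counts became 3 and 1, 4 and 0, and 5 and 0, and with hybridization spikes 3 and 1, 4 and 2, and 4 and 4. The other holds 7 genes, Serpinb2, Serpinb3a, Serpinb5, Serpinb7, Serpinb8, Serpinb11 and Serpinb12, of which 0 rose and 2 fell under TGF-β, 2 rose and 1 fell on withdrawal against TGF-β, and 1 was higher and 2 lower against control, beside the same shares of all genes. These became 0 and 2, 2 and 0, and 0 and 2 with poly-A spikes, and 0 and 2, 1 and 1, and 0 and 5 with hybridization spikes. Of 9 macrophage and leukocyte markers, cells in which several of these serpins are known, 0 were higher and 2 lower under TGF-β, 3 higher and 0 lower on withdrawal against TGF-β, and 2 and 2 against control. Their mean was 6.21 to 6.23 on the control arrays, 5.69 and 5.72 under TGF-β and 5.99 and 6.03 on withdrawal. In the same order of comparisons, Cd14 differed by -1.58, 1.86 and 0.28 and Mrc1 by -2.83, 0.56 and -2.27, all called. Cd68 was called only on withdrawal, 1.05 above TGF-β and 0.885 above control. Tyrobp was called only on withdrawal against control, at -0.41. Ptprc, which defines leukocytes, had means of 3.86, 3.99 and 3.83 and was called in no comparison. Neither were Adgre1, Csf1r, Itgam and Lyz2. The part of leukocyte-like cells in these serpin values was not tested. Genes of one cluster share sequence and can share probes, and no test set the clusters against each other.

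Of the second cluster, Serpinb8, which encodes an inhibitor of furin-like proteases, rose by 0.54 on withdrawal against TGF-β and was 0.48 above control (limma adjusted p = 0.00101 and 0.00156). The latter was lost with both spike scalings (adjusted p = 0.0723 and 0.454). Its other probe set differed in size, at 1.69 and 1.73. Serpinb3a, of the squamous cell carcinoma antigen group, was low throughout, at 3.56 to 4.00, and lower by 0.32 and 0.34 in the treated groups than in control (adjusted p = 0.019 and 0.0101). The first call was lost without any one of the control or TGF-β arrays (0.0566 to 0.0904) and the second without the first control array (0.0532). Serpinb7 fell by 0.25 on withdrawal against TGF-β (adjusted p = 0.0467), and this was lost in 5 of the 6 fits that left out an array, all but that without the second withdrawal array (0.0658 to 0.186). Serpinb11 and Serpinb12 were not called. Serpinb11 was at 0.30 and 0.31 above control in the treated groups, just short of the threshold on withdrawal (limma adjusted p = 0.0515). That difference passed with an intensity trend, the mean of probe sets, cyclic loess, the 4 arrays alone and without either TGF-β array (0.026 to 0.0488), and that under TGF-β without the first TGF-β array (0.0286).

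Among proteases that serpins are known to meet, 4 rose and 5 fell of 34 under TGF-β, 8 rose and 6 fell on withdrawal against TGF-β, and 10 were higher and 6 lower against control. The shares over all genes were 15.0% and 17.5%, 21.8% and 22.1%, and 21.7% and 23.6%. With poly-A spikes these counts became 2 and 9, 8 and 2, and 7 and 7, and hybridization spikes turned the split on withdrawal round, with 2 and 8, 7 and 16, and 5 and 24. Prss23, a secreted serine protease gene, rose by 3.65 ± 0.08 (SE) under TGF-β. C1s1 and C1ra, the complement proteases that the C1 inhibitor blocks, rose by 4.14 and 3.45 on withdrawal against TGF-β, while Serping1 itself read 5.10 to 5.43 on all 6 arrays and was not called. Ctsb, the cathepsin B gene, was 1.70 above control on withdrawal, and Htra1, a secreted protease gene, fell by 1.79 against TGF-β. Gzmb, the gene of the protease that Serpinb9 blocks, fell by 0.50 under TGF-β, between means of 5.18 and 4.68. The limma adjusted p was 0.0118 for Gzmb and 2.68e-06 to 9.56e-06 for the others.

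Of 30 measured protease inhibitor genes that are not serpins, 5 rose and 5 fell under TGF-β, 7 rose and 5 fell on withdrawal against TGF-β, and 7 were higher and 3 lower against control, beside the same shares of all genes. Poly-A spikes gave 4 and 7, 7 and 2, and 5 and 2, and hybridization spikes 4 and 7, 6 and 11, and 4 and 23, which turns the split on withdrawal round. The metalloproteinase inhibitor gene Timp3 rose by 3.38 and the membrane inhibitor gene Spint2 fell by 2.92 under TGF-β. On withdrawal against TGF-β, Pzp, a broad plasma protease trap related to α2-macroglobulin, rose by 3.28 and Itih2, of the inter-α-trypsin inhibitors, by 3.07 ± 0.36 (SE). Their limma adjusted p was 1.65e-06, 2.21e-06, 1.20e-06 and 0.000859.

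Of the 21 members called in no comparison, Serpinb6a was the exception in level, and the means of the other 20 lay between 3.64 and 7.04 with a median over the 21 of 4.88. On the probe sets used, their largest difference in any comparison was 0.31. The other probe set of Serpinf1 gave 0.87 under TGF-β and -0.92 on withdrawal against TGF-β. Over all genes the median level was 6.86, and 15 of the 21 were among the dimmest 40% of genes. Serpini2, encoding a pancreas-type serpin, was among them, and without the first TGF-β array it passed at -0.34 under TGF-β and 0.27 on withdrawal (limma adjusted p = 0.0188 and 0.0279). Serpinb6c, at 3.73 to 3.89, showed differences of 0.02 to 0.12.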

How the data were processed

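The authors deposited 1 log2 value for each probe set and array, and the submitters' processing notes name RMA, a method that removes background, gives arrays a common distribution and joins probes into sets. No version or settings of it are stated. RNA was labelled by a 3′ in vitro transcription kit, per the labels' protocols. Scanner intensities were not used. Of 45101 probe sets, 64 controls were left out and 34945 had 1 gene symbol in the platform annotation. RefSeq names (GRCm38.p6) matched all 40 members.

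One limma 3.58.1 model (R 4.3.3) was fitted to 18193 genes and all 6 arrays, without covariates, with eBayes, two-sided contrasts and Benjamini-Hochberg adjustment over all genes; a call is an adjusted p under 0.05. The script was tested on simulated data. Tables and figures used Python 3.11.15, pandas 2.3.3 and matplotlib 3.10.9. Array values were printed for members called with an absolute difference of at least 1 and for Serpinf1, Serpinh1, Serpinb5 and Serpinb2, and for others where a call or a level is described; lists name up to 4 called genes per comparison. The members and lists were chosen with earlier results of these data known. Alternatives were a replicate block, a trended prior on intensity, a filter on dim genes, other probe set choices, cyclic loess, spike scaling, pairwise fits and leaving out each array.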

Additional observations from a re-analysis of the deposited data

How the results depend on the processing

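Of 44 calls on members, 24 held under every alternative that gave a value, among them all those of Serpina1b, Serpina1c, Serpinb1a, Serpinb1b and Serpinh1. The other 20 were lost under at least 1, of which 13 on leaving out an array and 17 with a spike scaling. Poly-A spike scaling turned Serpina6 under TGF-β to -0.014. Members called higher under TGF-β went from 9 to 4 with poly-A and 5 with hybridization spikes, and lower from 5 to 9 with either, to 2 without probe sets ending in x, s or a (32 members left), and to 3 to 4 on leaving out an array. On withdrawal against TGF-β, those lower went from 6 to 2 and 11 with the spikes, and to 3 without the dimmest 40% of genes (16 members left). On withdrawal against control, hybridization spikes gave 7 higher and 25 lower. All genes higher under TGF-β became 903 and 1319 with poly-A and hybridization spikes, and lower 5089 with poly-A. On withdrawal against TGF-β, 2146 were higher with hybridization spikes, and 1624 and 7772 lower with poly-A and hybridization spikes. Against control, 2136 and 1655 were higher, and 12634 lower with hybridization spikes. The cause of these shifts was not tested.

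Replicate numbers are shared between the groups. Deviations of same-numbered arrays correlated at only -0.016 to 0.0067, so no shift common to them was seen. Whether arrays were cultured or processed in pairs is not stated, and these values cannot tell. With the replicate block, 2568 genes rose and 2951 fell under TGF-β, 3854 and 3834 on withdrawal against TGF-β, and 3800 and 4108 against control; of the 44 member calls 43 were kept, and Serpinb7 passed on withdrawal against control (adjusted p = 0.039). With 2 arrays per group and no detection calls, small differences and dim members are not resolved.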
